A study of Mus musculus with 14 samples.

Results

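Methylation of mammary adipose tissue was compared between obese mice that lost weight on a low-fat diet (DIO-LFD) and mice that stayed obese (DIO-HFD), over every CpG site measured by reduced-representation bisulfite sequencing (RRBS). The comparison takes 7 of the 14 mice of the series, 3 DIO-LFD and 4 DIO-HFD, chosen by their group labels, and all 75761 sites. The mice were wild-type C57BL/6N females (substrain C57BL/6NCrl) that were 8 weeks old on arrival, and both groups were made obese by 15 weeks on a diet providing 60% of calories from fat. This feeding went on unchanged in DIO-HFD mice, whereas DIO-LFD mice were switched to one providing 10%. All 7 mice had a sham procedure in place of bariatric surgery, and E0771 mammary tumor cells were injected into the 4th fat pad 22 weeks after randomization. The tissue is the opposite, tumor-free 9th mammary fat pad, taken about 4 weeks later, although the labels also name the E0771 line as its cell line. The other 7 mice, 3 lean CON-LFD mice kept on the 10% diet and 4 DIO-VSG mice that lost weight after vertical sleeve gastrectomy, were used to share the estimate of the spread between mice and to set the level classes.

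DNA methylation in mammals is found mostly at the C of CpG dinucleotides. Promoters that lie in CpG islands are usually unmethylated, while the bodies of genes and the sequence between genes are mostly methylated. Adipose tissue is a mixture of adipocytes, immune cells, endothelium, stroma and, in the mammary gland, epithelium. A level is the methylated share of the reads at a site, so it averages over the cells of the pad, and a change in the share of a cell type and a change within cells cannot be told apart. The deposited levels carry no read counts, so the depth behind a level is unknown and no interval can be given for a single mouse.

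DIO-HFD replicate 1 stood apart from the other mice of its group. Its level averaged 65.0% over all sites, against 56.9%, 57.4% and 57.3% in replicates 2 to 4 and 64.1%, 60.6% and 62.0% in the DIO-LFD mice. The mean absolute difference over tested sites was 14 to 14.7 percentage points between replicate 1 and replicates 2 to 4, 7.22 to 7.62 points among replicates 2 to 4, and 7.10 to 10.7 points between replicate 1 and the DIO-LFD mice. The DIO-LFD mice lay 8.05 to 10.6 points from each other and 9.82 to 14 points from DIO-HFD replicates 2 to 4. Results are therefore given with and without DIO-HFD replicate 1.

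The difference of the group means, DIO-LFD minus DIO-HFD, was above 0 at highly methylated sites and slightly below 0 at sites of low methylation, but the groups overlapped in every level class and no difference passed a test. Classes were set by the mean of the 7 mice not compared. In the 25600 sites at 70 to 90%, DIO-LFD mice were at 83.0%, 77.8% and 80.0%, and DIO-HFD mice at 84.2%, 72.3%, 71.9% and 73.0%. Every DIO-LFD mouse was above DIO-HFD replicates 2 to 4 and below replicate 1. The difference of the means was 4.88 percentage points in this class (80.3% ± 2.59, SD, n = 3, against 75.4% ± 5.92, SD, n = 4, two-sided exact permutation test, p = 0.229), 2.88 points at 30 to 70% (exact p = 0.343) and 2.77 points at 90% or more (exact p = 0.229). It was -0.0827 points at 10 to 30% (exact p = 1.00) and -1.14 points under 10% (exact p = 0.571). After adjustment over the 5 classes no p was below 0.571, and the smallest p that 3 against 4 mice allow is 0.0571. Without DIO-HFD replicate 1 the difference was 7.83 points at 70 to 90%, 4.87 at 30 to 70% and 4.21 at 90% or more, each with an exact permutation p of 0.1, which is the smallest that 3 against 3 mice allow. It was then 0.199 at 10 to 30% (exact p = 0.800) and -1.54 under 10% (exact p = 0.600). Under 10% the value rested on DIO-HFD replicate 3, and was -0.0651 without it. When the gap between the class at 70 to 90% and that under 10% was taken within each mouse, it was wider by 6.02 points in DIO-LFD mice (exact permutation p = 0.229, 0.366 after adjustment over 8 pairs of classes). It was wider by 9.37 points without DIO-HFD replicate 1 (exact p = 0.1) and by 3.8 without replicate 3 (exact p = 0.400).

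By annotation, the difference of the means was largest in introns and exons and smallest in promoter CpG islands. Each site was put in the 1st class that applied, in the order promoter CpG island, promoter outside islands, CpG island outside promoters, exon, intron and the rest. Over the 19066 intron sites DIO-LFD mice were at 70.9%, 66.2% and 68.2%, and DIO-HFD mice at 71.7%, 61.5%, 61.7% and 61.9%. Over the 10403 promoter CpG island sites DIO-LFD mice were at 42.5%, 41.7% and 41.6%, and DIO-HFD mice at 43.7%, 39.6%, 41.7% and 40.6%. The differences were 4.24 percentage points in introns, 4.21 in exons, 3.31 in the rest, 2.67 in promoters outside islands, 2.06 in islands outside promoters and 0.542 in promoter CpG islands. Exact permutation p-values ranged over these 6 classes from 0.229 in introns to 0.800 in promoter CpG islands, or from 0.514 after adjustment, and without DIO-HFD replicate 1 the differences were 6.75, 6.76, 5.20, 4.48, 3.92 and 1.31 points in the same order. When the difference between classes was itself tested within each mouse, introns exceeded promoter CpG islands by 3.70 points more in DIO-LFD than in DIO-HFD mice (exact permutation p = 0.171, 0.366 after adjustment over 8 pairs of classes), and by 5.44 points more without DIO-HFD replicate 1 (exact p = 0.1). The gap between introns and exons differed by 0.0368 points (exact p = 0.914). With each mouse set against its own mean over all sites, the sign turned at 30 to 70% (-0.188), at 90% or more (-0.299), in promoter CpG islands (-2.53), in promoters outside islands (-0.403) and in islands outside promoters (-1.01), and it remained positive at 70 to 90%, in exons, in introns and in the rest.

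**Figure D1:**
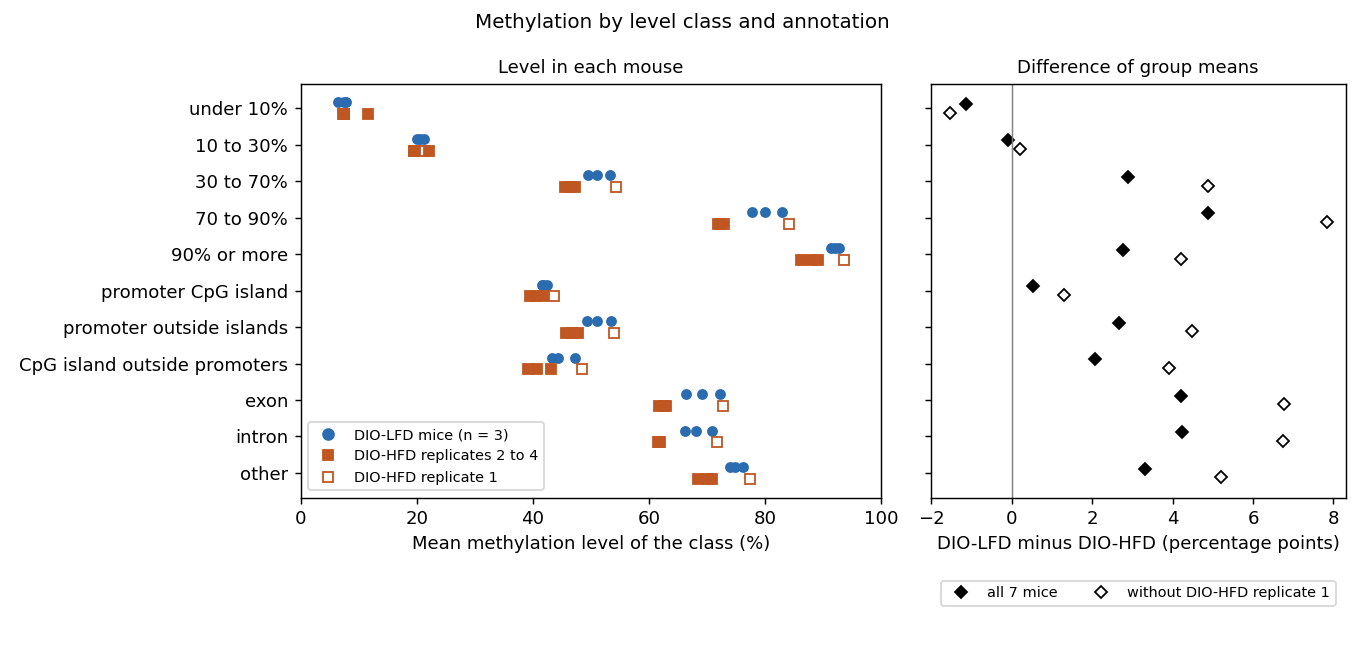
Mean methylation level (%) of each level class and annotation class in each mouse, left, and DIO-LFD minus DIO-HFD in percentage points, right. Circles are DIO-LFD mice, filled squares DIO-HFD replicates 2 to 4 and open squares DIO-HFD replicate 1, which lies to the right of the DIO-LFD mice at 70 to 90% (84.2% against at most 83.0%). Filled diamonds use all 7 mice and open diamonds leave out replicate 1, and the difference is largest at 70 to 90%.

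The same order was seen by distance from the transcript start. The difference was 1.14 percentage points within 500 bp, 2.72 from 500 to 2000 bp, 3.8 from 2000 to 10000 bp, 3.8 from 10000 to 50000 bp and 3.1 beyond. On each of the 20 chromosomes measured the mean level was higher in DIO-LFD mice, from 1.89 points on chromosome 16 to 3.99 on chromosome 4, and all 3 DIO-LFD mice lay above DIO-HFD replicates 2 to 4. These values describe the same mice and are not separate tests.

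Single sites showed the same shift with wide scatter. Over the 65610 sites whose level had a standard deviation of at least 0.05, the median difference was 3.8 percentage points (6.04 without DIO-HFD replicate 1), and 69.7% of sites were higher in DIO-LFD mice. Differences of at least 20 points were seen at 1269 sites in the higher direction and at 430 in the lower, and differences of at least 30 points at 62 and 40. Adjusted p was under 0.05 by limma at 2 sites (0.00305% of those tested), 1 higher and 1 lower, and unadjusted p was under 0.05 at 6614 sites (10.1%), 5195 higher and 1419 lower. The groups did not overlap at 3148 sites (4.80%), 2206 higher and 942 lower. If the 35 splits of 3 and 4 mice were equally likely, groups would be apart at a share of 0.0571. The 4.80% is not above that share. Without DIO-HFD replicate 1, adjusted p was under 0.05 at 9551 sites (14.6%), 7961 higher and 1590 lower. Centring each mouse on its own median took the higher share of the 6614 down from 78.5% to 55.5% of the sites then called, and moved the median difference in M, the log2 ratio of methylated to unmethylated level, by 0.29.

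**Figure D2:**
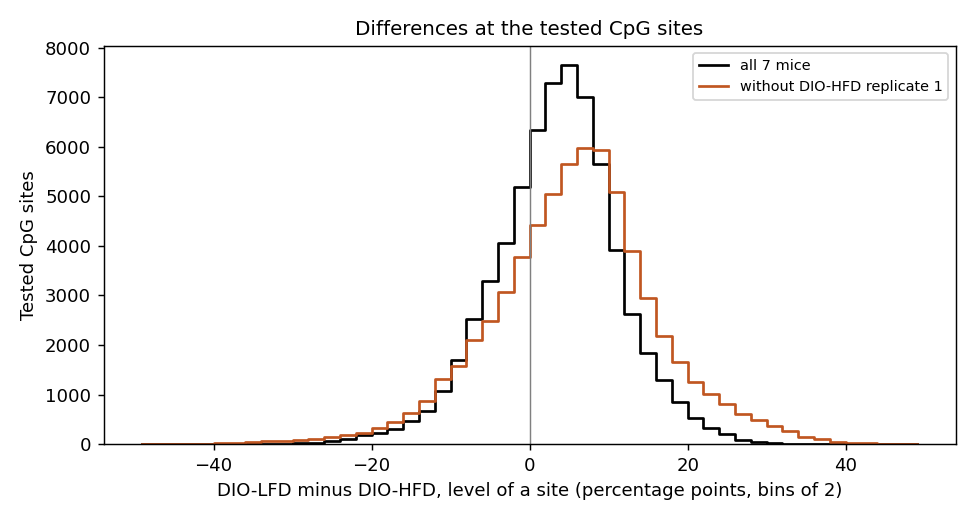
Number of tested CpG sites by the difference in level, DIO-LFD minus DIO-HFD, in bins of 2 percentage points. The black line uses all 7 mice, with a median of 3.8 points, and the orange line leaves out DIO-HFD replicate 1, with a median of 6.04 points.

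The direction of the sites with an unadjusted p under 0.05 followed the level class and the annotation. Of these sites, 90.5% were higher in DIO-LFD mice at 70 to 90% methylation, 84.5% at 90% or more, 74.6% at 30 to 70%, 58.3% at 10 to 30% and 24.1% under 10%. By annotation, 85.0% were higher in exons, 82.8% in introns, 84.5% outside genes and islands, 75.6% in promoters outside islands, 63.9% in islands outside promoters and 53.0% in promoter CpG islands. The share of tested sites with such a p was 11.7% in exons, 12.3% in introns and 7.15% in promoter CpG islands. The share whose groups did not overlap was instead highest in promoter CpG islands, at 6.79%, against 4.16% in exons and 4.23% in introns. These shares describe sites that neighbor each other in the same mice and carry no test.

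The site past the threshold in the lower direction lies in Ctnnb1, which encodes β-catenin, the coactivator of canonical Wnt signaling that also anchors cadherins at adherens junctions. It is on chromosome 9 at position 120933370 of mm10, in a promoter and CpG island and in an intron of the annotated gene. The site lies within CCGG, the sequence at which the enzyme MspI cuts the DNA. Its level was 0 in all 3 DIO-LFD mice and 27.6%, 19.3%, 19.7% and 13.5% in the DIO-HFD mice, which on the M scale is -4.67 with SE 0.39 (limma, adjusted p = 0.00140). The lean CON-LFD mice, at 14.3%, 30.4% and 11.8%, were near the DIO-HFD mice, and all 4 DIO-VSG mice were at 0. Where a level is 0, M is set by the offset of 0.01 added to it, and with an offset of 0.1 the difference in M was -1.86. Leaving out 1 mouse at a time kept the adjusted p at or below 0.0103, but the call was lost with an offset of 0.1 in M, with untransformed levels and with trended and robust eBayes. The other 5 tested sites of Ctnnb1 were higher in DIO-LFD mice. The nearest differed by 1.07 percentage points. The sequence around the site is shown because 1 of its 20 CpGs carries the call and the others were not in the table. It is the forward strand of mm10 at chr9:120933270-120933399, with the measured CpG in capitals.
Ctnnb1: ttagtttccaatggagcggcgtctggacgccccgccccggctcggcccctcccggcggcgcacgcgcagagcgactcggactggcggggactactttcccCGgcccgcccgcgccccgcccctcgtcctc

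The site past the threshold in the higher direction, on chromosome 4 at 5763002, is in an intron of Fam110b. Its level was 100% in all 3 DIO-LFD mice and 92.0%, 81.8%, 75.0% and 75.9% in the DIO-HFD mice (4.50 on the M scale with SE 0.47; limma, adjusted p = 0.00895), or 1.76 on that scale with an offset of 0.1. The adjusted p by limma was 0.0554 without DIO-HFD replicate 2 and 0.0539 without DIO-HFD replicate 4. It was 0.0610 with the 2 groups alone and 0.112 with the replicate number as a block. The settings that ended the call at Ctnnb1 ended this one too. Unlike at Ctnnb1, the surrounding sites went the same way. Of 13 tested sites within a run of 429 bp, 12 were higher in DIO-LFD mice, and the mean of the run was 96.1%, 95.8% and 94.4% in DIO-LFD and 96.1%, 77.3%, 88.3% and 84.2% in DIO-HFD mice. DIO-HFD replicate 1 lay at the level of DIO-LFD replicate 1. The forward strand at chr4:5762902-5763102 of mm10 is given with its 5 measured CpGs in capitals, and the called site is the CG at base 101.
Fam110b: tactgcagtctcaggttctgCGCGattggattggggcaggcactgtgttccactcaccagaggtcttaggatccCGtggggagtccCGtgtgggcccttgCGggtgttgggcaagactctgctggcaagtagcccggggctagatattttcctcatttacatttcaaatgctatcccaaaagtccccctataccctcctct

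Among the other sites, those named next had the smallest p of 165 higher and 87 lower sites with non-overlapping groups, a difference of at least 20 percentage points and a gene symbol, 1 site a gene. None had an adjusted p under 0.392 by limma with all mice. All 12 of the higher and all 12 of the lower sites, Ctnnb1 among the latter, were past the threshold without DIO-HFD replicate 1, against 14.6% of all tested sites. Nothing is read from that count, because the sites were chosen by p in the same mice, and that the groups do not overlap was also set by the choice. Of the higher sites 5 were in introns, 5 outside genes and islands, 1 in an exon, 1 in a promoter outside islands and 0 in a CpG island. Of the lower sites 8 were in CpG islands, 5 of them in promoters. Of all tested sites 25.8% were in introns, 12% in promoter CpG islands and 9.89% in islands outside promoters, and the difference in place between the higher and the lower sites was not tested. Neighboring sites within 200 bp all went the same way at 8 of the 10 higher sites with a neighbor, and at 4 of 9 lower sites, while at 4 lower sites no neighbor did. These counts carry no test, and over all tested sites 69.7% were higher and 30.3% lower.

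Of the higher sites, the one with the largest difference lay on chromosome X at -16293 bp from the start of D330045A20Rik. It was at 97.6%, 95.6% and 93.3% in DIO-LFD mice and at 72.7%, 75.0%, 60.0% and 50.0% in DIO-HFD mice. A site listed for Mfng, which encodes the fringe glycosyltransferase that modifies Notch receptors, differed by 29.6 percentage points, with 83.1%, 88.9% and 80.0% against 72.5%, 47.2%, 44.4% and 53.6%. It lies in the annotated span of Card10, and all 31 tested sites listed for Mfng were higher in DIO-LFD mice. A site listed for Mir92b, within the spans of Mtx1 and Thbs3, was at 77.1%, 81.8% and 82.7% against 63.6%, 48.0%, 52.2% and 52.9%. An intron site of Plekhg5, which encodes a guanine nucleotide exchange factor, was at 96.6%, 100% and 94.6% against 82.4%, 70%, 79.8% and 71.4%. Its window of 201 bp is shown as an example of a CpG-poor intron, at chr4:152101705-152101905 on the forward strand of mm10. It holds 2 CpGs, both measured and in capitals, which were higher by 21.2 and 20.3 points.
Plekhg5: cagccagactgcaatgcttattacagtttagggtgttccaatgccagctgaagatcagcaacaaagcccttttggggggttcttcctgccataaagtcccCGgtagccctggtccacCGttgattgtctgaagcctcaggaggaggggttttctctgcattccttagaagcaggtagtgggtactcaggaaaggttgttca

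At Rab3a, which encodes a GTPase of regulated exocytosis, the DIO-LFD mice were at 73.7%, 77.8% and 77.9% and the DIO-HFD mice at 52.9%, 52.1%, 51.6% and 56.2%. Here DIO-HFD replicate 1 lay among the other obese mice. It also did so at a site upstream of Ppp1r1b, which encodes the phosphatase regulator DARPP-32, with 73.5%, 69.2% and 70% against 42.1%, 51.5%, 56.5% and 40.0%. Sites listed for the ephrin receptor gene Epha2, for Mir7213 (within Pdgfb, a platelet-derived growth factor gene) and for Lrrc7 differed by 20, 20.5 and 20.6 points. In each of them replicate 1 was the DIO-HFD mouse nearest to the DIO-LFD mice. The Lrrc7 site lies outside the annotated gene, at -174858 bp from the transcript start. The remaining higher sites were those listed for Pla2g2d, a secreted phospholipase A2 gene, at 20.3 points, Grin2c (within Fdxr), an NMDA receptor subunit gene, at 22.0 points, and 4930595M18Rik, at 20.4 points. The 4930595M18Rik site also lies outside the annotated gene, at -171689 bp from the transcript start.

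Of the lower sites, that of Mesdc1 was at 3.12%, 43.5% and 5.88% in DIO-LFD mice against 58.6%, 56.4%, 50.0% and 53.6% in DIO-HFD mice, that of Metap1, which encodes a methionine aminopeptidase, at 0, 34.8% and 0 against 44.7%, 38.3%, 52.5% and 46.8%, and that of D930015E06Rik at 0, 36.4% and 0 against 51.6%, 38.9%, 38.3% and 38.5%. At these 3 CpG island sites DIO-LFD replicate 2 lay close to the DIO-HFD mice and replicates 1 and 3 near 0, so the DIO-LFD mice differed among themselves about as much as the groups did. Of the 12 lower sites, 6, that of Ctnnb1 among them, lie within CCGG, the recognition site of the enzyme MspI that cuts the DNA, against 1 of the 12 higher sites and 29.1% of all tested sites. Among all sites with an unadjusted p under 0.05, 468 of 1452 within CCGG were lower and 951 of 5162 outside it. A fit limited to sites outside CCGG, which leaves out the Ctnnb1 site, gave 1 site with an adjusted p under 0.05, in Fam110b, and 4865 with an unadjusted p under 0.05. At Rasl10a, listed for an exon site within Gas2l1, the difference was -36.5 points, with 21.8%, 31.2% and 27.9% against 72.7%, 64.2%, 48.9% and 68.2%, and its 3 neighbors within 200 bp were all higher in DIO-LFD mice. The others included a site nearest an immunoglobulin κ variable segment on chromosome 6, at -25.2 points, Gm17173, at -23.1, Nfatc1, which encodes a calcineurin-dependent transcription factor, at -22.4, Slc25a51, a mitochondrial NAD carrier gene, at -21.8, and Crb2, an apical polarity gene, at -20.4. At Crb2 all 32 neighbors within 200 bp were lower as well, by a median of 7.23 points, while 48 of the 95 tested sites of the gene were higher.

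**Figure D3:**
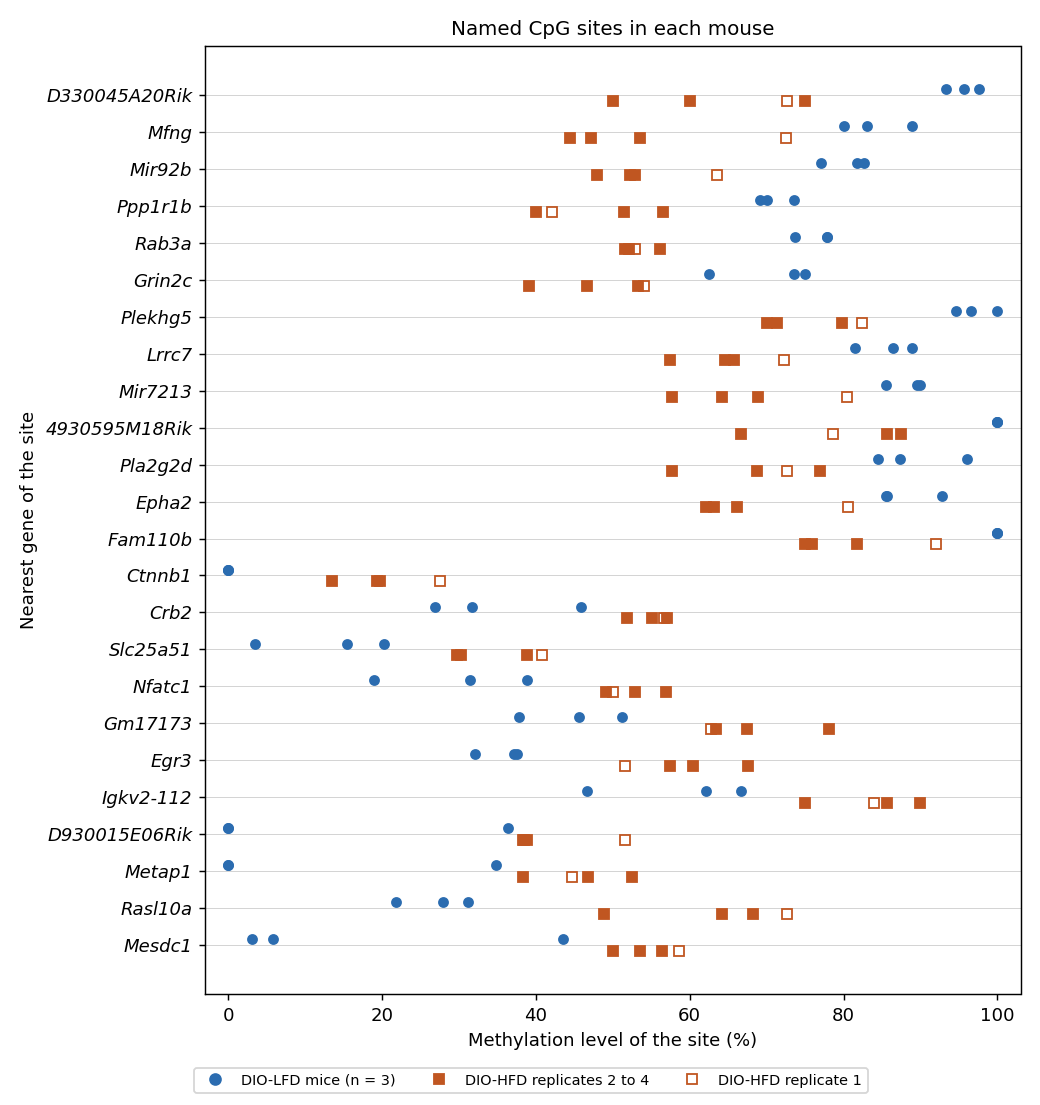
Methylation level (%) of 24 sites chosen by size and p, 1 row per nearest gene, ordered by the difference. Circles are DIO-LFD mice, filled squares DIO-HFD replicates 2 to 4 and open squares DIO-HFD replicate 1. The groups do not overlap in any row because this was part of the choice, and replicate 1 is the DIO-HFD mouse nearest to the DIO-LFD mice at Mfng (72.5%) and Egr3 (51.6%).

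Egr3 was the gene with the most lower sites at an unadjusted p under 0.05, 29 of the 57 tested, and was named for this. Of all tested sites 2.16% were lower at such a p. Egr3 lies in a comparison where neighboring sites share mice and often reads, so the 29 are not separate. It encodes a zinc finger transcription factor of the early growth response family, whose genes are induced rapidly by growth factor and antigen receptor signals. The site chosen by p, in the coding exon on chromosome 14, was at 37.2%, 32.1% and 37.6% in DIO-LFD mice and at 51.6%, 60.4%, 57.5% and 67.6% in DIO-HFD mice (limma, adjusted p = 0.461, and 0.00886 without DIO-HFD replicate 1). All 39 tested sites of the run that holds it, 2073 to 2634 bp downstream of the transcript start and inside a CpG island, were lower in DIO-LFD mice, 26 of them at an unadjusted p under 0.05. The mean of the run was 33.6%, 31.7% and 34.4% in DIO-LFD mice and 35.7%, 46.5%, 53.3% and 54.6% in DIO-HFD mice, a difference of -14.3 percentage points that was -18.2 without replicate 1. The groups did not overlap, though DIO-HFD replicate 1, at 35.7%, lay close to the highest DIO-LFD mouse. CON-LFD mice averaged 34.5% ± 3.40 (SD, n = 3) and DIO-VSG mice 32.6% ± 0.590 (SD, n = 4) there.

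Gnas, an imprinted gene with several promoters that encodes the stimulatory G protein α subunit and related transcripts, held sites in both directions. Of its 83 tested sites, 26 were higher and 7 lower at an unadjusted p under 0.05, and 28 of these 33 lay in a CpG island run of 40 sites between positions 174328742 and 174329339 of chromosome 2. The 21 higher sites were at the upstream end, from 174328742 to 174328978, where their mean was 37.8%, 56.2% and 37.6% in DIO-LFD mice and 30.9%, 25.6%, 23.8% and 26.5% in DIO-HFD mice. The 7 lower sites were at the downstream end, from 174329253 to 174329339, with 2.11%, 7.05% and 1.90% against 8.95%, 24.2%, 11.5% and 22.1%. Both means are of sites chosen by their p and describe them only. Without DIO-HFD replicate 1, 17 of the gene's sites were higher and 6 lower at an adjusted p under 0.05, against 14.6% of all tested sites in either direction. With all mice, 7.92% of all tested sites were higher and 2.16% lower at an unadjusted p under 0.05. Gnas was named for its number of such sites, so nothing is read from these counts.

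**Figure D4:**
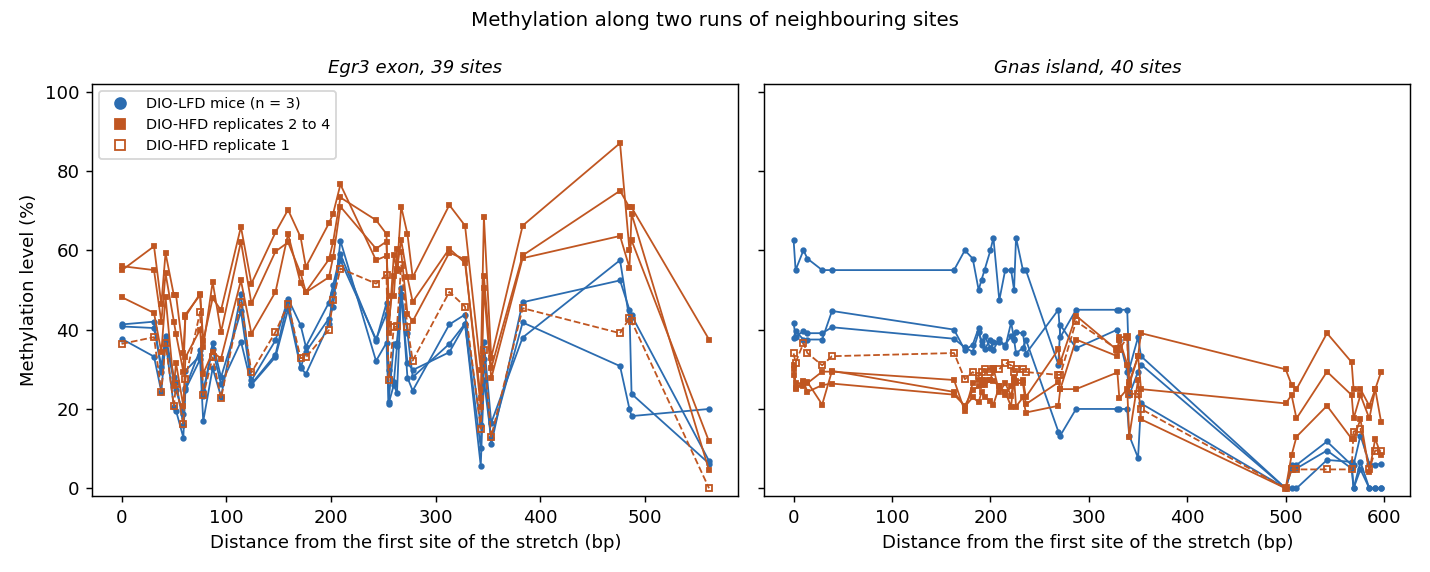
Methylation level (%) of neighboring sites against the distance (bp) from the 1st site of each run, for the Egr3 exon (39 sites, left) and the Gnas island (40 sites, right). Blue lines are the 3 DIO-LFD mice, solid orange lines DIO-HFD replicates 2 to 4 and the dashed line DIO-HFD replicate 1. DIO-LFD mice lie below DIO-HFD replicates 2 to 4 along most of Egr3, whereas at Gnas they lie above at the upstream end and below at the downstream end.

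The other genes with many such sites were nearly all in the higher direction. Of the 12 genes with the most sites at an unadjusted p under 0.05, chosen after their values were seen, 11 had more higher than lower sites, and in these 11 all DIO-LFD mice lay above DIO-HFD replicates 2 to 4 in the mean over the gene's tested sites. The groups did not overlap in 1 of the 12, Egr3. Hspg2, which encodes the basement membrane proteoglycan perlecan, had 30 such sites of 74, all higher and all in introns. Its mean level was 75.7%, 57.1% and 64.3% in DIO-LFD mice and 72.8%, 40.5%, 43.8% and 42.0% in DIO-HFD mice. The 44 sites listed for Mir1905, which lie in the span of Mex3a, had 30, and their mean was 58.9%, 42.2% and 43.8% against 54.4%, 17.0%, 21.5% and 20.1%. Runx3, a transcription factor gene of lymphocyte development, had 17 higher and 3 lower of 73, with 61.5%, 46.2% and 52.8% against 65.0%, 35.2%, 34.9% and 39.1%. Caskin2, Eva1b, Agap2 and B3gnt3 had 17, 17, 16 and 16, all higher. In Hspg2, Runx3 and Mir1905, DIO-HFD replicate 1 was above at least 2 of the DIO-LFD mice. Among the genes with the most lower sites after Egr3, Gm15475 had 10 lower and 0 higher of 33 sites, and Tnfaip2 9 and 0 of 38. The genes named next held higher ones too. Of all tested sites 2.16% were lower and 7.92% higher at such a p. Zfp316 had 13 lower and 1 higher of 114 sites, Fignl2 11 and 4 of 119, and Tmem28 on chromosome X 11 and 2 of 70. Gata2, a transcription factor gene of hematopoietic and adipocyte precursors, had 10 lower and 5 higher of 84, and its mean over all 84 was higher in DIO-LFD mice by 2.65 points.

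Neighboring sites were also averaged into regions. Of 4750 tested regions, which are runs of at least 3 sites with gaps of at most 200 bp, 0 had an adjusted p under 0.05 by limma, while 600 (12.6%) had an unadjusted p under 0.05, 502 higher and 98 lower, and the groups did not overlap in 109 (2.29%). The 2.29% is below the share of 0.0571 that equally likely splits of the mice would give. Without DIO-HFD replicate 1, 2765 regions (58.2%) passed, 2373 higher and 392 lower. The 6 regions with the smallest p had an adjusted p of 0.366 and were all higher. The region nearest Bcan, which encodes the proteoglycan brevican, was at 79.7%, 70.3% and 70.7% in DIO-LFD mice and at 66.6%, 44.0%, 45.1% and 40.8% in DIO-HFD mice. A region listed for Sardh in exon sequence of Vav2, a guanine nucleotide exchange factor gene, was at 92.9%, 76.9% and 83.0% against 84.1%, 34.9%, 34.5% and 43.8%, and here DIO-HFD replicate 1 lay within the DIO-LFD mice. The others were nearest Gm20638, Gm42943 (within Negr1), Dyrk2 and Nkain2, with differences of 9.14, 12.7, 10.9 and 16.1 percentage points. At Dyrk2 the groups overlapped as well, with DIO-HFD replicate 1 at 95.3% and the DIO-LFD mice at 97.0%, 95.0% and 98.3%. The Bcan region has 3 CpGs in 150 bp at chr3:87986211-87986360 of mm10 (forward strand), all measured, in capitals, and higher by 9.64 to 31.8 points.
Bcan: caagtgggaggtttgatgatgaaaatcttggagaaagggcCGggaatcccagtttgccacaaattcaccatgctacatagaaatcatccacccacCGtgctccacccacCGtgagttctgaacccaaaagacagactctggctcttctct

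Among 2433 genes with a mean over their own sites, 0 had an adjusted p under 0.05 by limma and 239 (9.82%) an unadjusted p under 0.05, 192 higher and 47 lower. The groups did not overlap in 63 (2.59%), below the share of 0.0571 that equally likely splits would give, and 1199 (49.3%) passed without DIO-HFD replicate 1. The 4 genes with the smallest p, each with an adjusted p of 0.429, were Gm42943, Lipk, Clca4b and Pla2g2d. Lipk, a gene of the acid lipase family, was at 97.1%, 91.7% and 98.8% in DIO-LFD mice and at 87.3%, 90.6%, 82.4% and 80.6% in DIO-HFD mice. Pla2g2d was at 96.1%, 82.2% and 84.4% against 74.3%, 75.9%, 56.8% and 68.6%. Lipk rests on 2 sites 4 bp apart and Pla2g2d on 2 sites 10 bp apart.

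Genes of adipose function were thinly covered. A list takes the sites within 5000 bp of the start of its genes or flagged as promoter, exon or intron, so a gene can have further sites that are not counted there. Of 25 adipocyte identity and adipokine genes 12 had a tested site, with 6 of 113 sites higher and 4 lower at an unadjusted p under 0.05 and a median difference of 1.20 percentage points, against 10.1% of sites called and 3.8 points over all tested sites. An exon site of Cfd, which encodes the adipokine adipsin, was at 87.8%, 91.8% and 87.1% in DIO-LFD mice and at 87.0%, 66.7%, 80.8% and 78.0% in DIO-HFD mice. An intron site of Zfp423, a preadipocyte transcription factor gene, was higher by 14.2 points. However, only 12 of the 32 tested sites of Zfp423 were higher, and the median over the 32 was -2.63 points. In the adipocyte list the groups did not overlap at 2 higher and 6 lower sites (7.08%, against 4.80% over all tested sites). Equally likely splits of the mice would give a share of 0.0571, and the difference was not tested. Of the 79 sites in lipid synthesis, storage and lipolysis genes, 3 were higher and 0 lower (3.8%), among them a promoter site of Lipe, which encodes hormone-sensitive lipase, at 51%, 49.2% and 53.1% against 45.2%, 31.9%, 37.3% and 32.6%. Insulin and growth factor signaling had 12 higher and 2 lower of 150 (9.33%), with the chosen sites of Grb10 and Pik3r2 higher by 19.8 and 14.1 points. The medians over the 16 tested sites of Grb10 and the 18 of Pik3r2 were 1.69 and 3.27 points. Inflammation and cytokine genes had 0 higher and 2 lower of 58 (3.45%), and the sites chosen for that list were Tgfb1, lower by 12 points (77.4%, 97.1% and 84.7% against 100%, 97.3%, 98.5% and 97.6%), and Socs3, higher by 8.80. However, 4 of the 7 tested Tgfb1 sites were higher, as were 37 of the 55 of Socs3.

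Extracellular matrix genes had the largest median difference of any list, at 7.99 percentage points over 104 sites (12.1 without DIO-HFD replicate 1), against 3.8 over all tested sites. Of these sites 9 were higher and 0 lower at an unadjusted p under 0.05 (8.65%, against 10.1% over all tested sites), and the mean over the list overlapped between the groups, at 58.0% to 65.4% in DIO-LFD mice and 49.0% to 67.2% in DIO-HFD mice. An intron site of Lama5, a laminin chain gene of basement membranes, was at 74.8%, 68.2% and 70.4% against 67.5%, 36.7%, 46.6% and 51.7%, and an intron site of Col6a1, a collagen VI gene, was higher by 8.77 points. Nuclear receptor genes had 44 higher and 6 lower of 441 sites (11.3%, close to the 10.1% of all tested sites). A promoter site of Nr2f2, an orphan receptor gene, was at 100%, 98.7% and 100% against 89.7%, 84.4%, 84.8% and 83.8%. Its 1 neighbor within 200 bp differed by -11.0 points, and 13 of the 22 tested Nr2f2 sites were higher. An intron site of Rxra, the retinoid X receptor α gene, was at 96.8%, 92.3% and 97.9% against 81.2%, 84.7%, 82.9% and 79.6%, and 42 of the 57 tested Rxra sites were higher. The β-catenin and Wnt list had 22 higher and 6 lower of 284 (9.86%), and beside Ctnnb1 its chosen site was in Cdh2, the N-cadherin gene, at 0 in all 3 DIO-LFD mice and 18.6%, 23.6%, 20.7% and 15.6% in DIO-HFD mice (limma, adjusted p = 0.437). The 1 neighbor of the Cdh2 site within 200 bp was higher by 17.3 points, and 7 of the 9 tested Cdh2 sites were higher. Chromatin enzyme genes had 11 higher and 4 lower of 113 (13.3%). Of these, Hdac5, a class II histone deacetylase gene, had all 27 tested sites higher in DIO-LFD mice, by a median of 18.1 points, while the site chosen in the H3K4 methyltransferase gene Kmt2d was lower by 8.25. However, 5 of the 6 tested Kmt2d sites were higher.

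Developmental transcription factor genes had the most lower sites of any list and imprinted genes the largest share of called sites, which is a description and carries no test. Of 653 sites in developmental genes 25 were higher and 46 lower (10.9%, against 10.1% over all tested sites), and their median difference was -0.418 percentage points. An intron site of Pax1 was at 10%, 15.9% and 7.41% in DIO-LFD mice and at 16.5%, 37.8%, 30.8% and 31.1% in DIO-HFD mice. A site of Gata4 was lower by 9.67 points, but 5 of the 11 tested Gata4 sites were higher and their median was -0.767 points. The mean level over these sites was 38.1% in DIO-LFD and 38.4% in DIO-HFD mice, against 63.1% and 59.7% over all tested sites. Of 188 sites in imprinted genes 33 were higher and 10 lower (22.9%), and 31 and 6 had groups that did not overlap (19.7%, against 4.80% over all tested sites). Gnas alone gave 33 of these 43 sites.

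**Figure D5:**
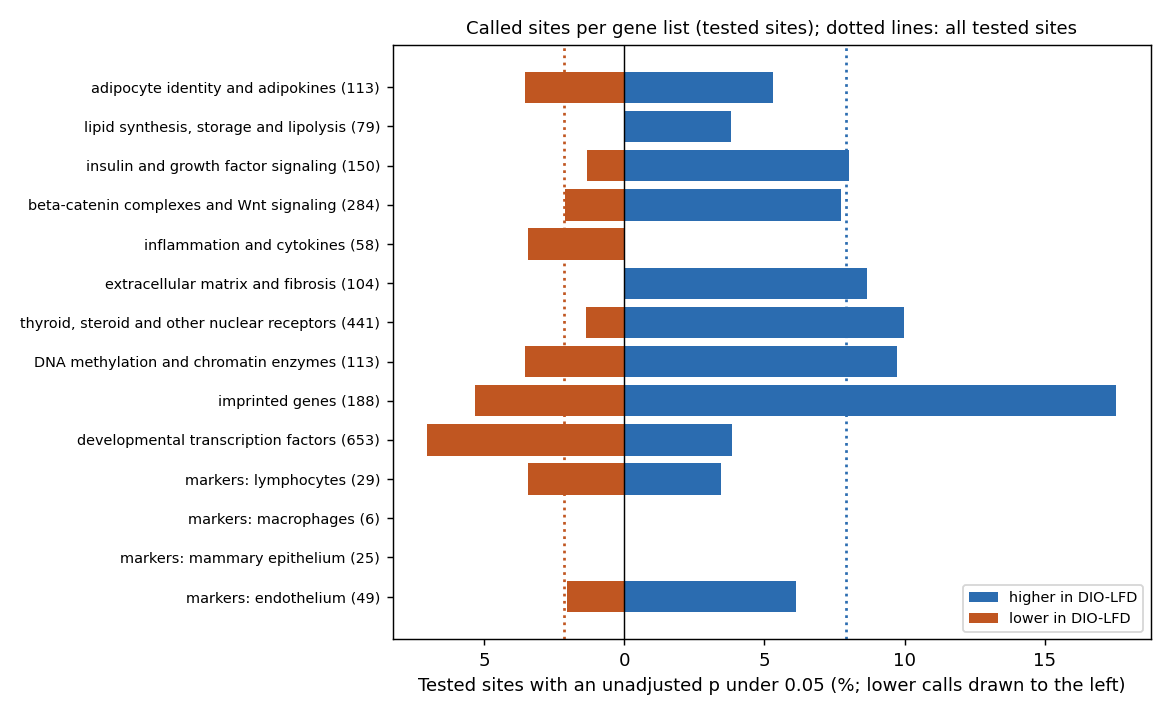
Share (%) of the tested sites of each gene list with an unadjusted p under 0.05, higher in DIO-LFD mice to the right and lower to the left, with the number of tested sites in brackets. Dotted lines mark the shares over all tested sites, 7.92% higher and 2.16% lower. Imprinted genes extend furthest to the right and developmental transcription factors furthest to the left.

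Sites in marker genes of other cells of the pad were few. Of 26 lymphocyte, 20 macrophage, 20 mammary epithelial and 20 endothelial markers, 6, 3, 7 and 14 genes had a tested site. At an unadjusted p under 0.05 there was 1 site higher and 1 lower of 29 in lymphocyte markers, 0 of 6 in macrophage markers, 0 of 25 in epithelial markers, and 3 higher and 1 lower of 49 in endothelial markers, against 10.1% of all tested sites. The endothelial sites had a median difference of 5.74 percentage points and 73.5% of them were higher, while the 1 site whose groups did not overlap, in the promoter of the VEGF receptor gene Flt1, was lower by 12.9 points. The mean level over the lymphocyte marker sites was 62.8% to 69.1% in DIO-LFD mice and 59.6% to 68.6% in DIO-HFD mice, over the epithelial marker sites 60.6% to 68.4% and 59.9% to 69.0%, over the endothelial marker sites 56.0% to 60.4% and 48.0% to 62.0%, over the 6 macrophage marker sites 66.0% to 70.2% and 51.2% to 77.1%, and over the adipocyte sites 52.0% to 53.1% and 47.9% to 53.7%. The 2 groups overlapped in each list. The part of the cell mixture in the differences was not tested.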

How the data were processed

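RRBS was measured in mammary adipose tissue of 14 mice. Alignment to mm10 was done by the authors with Bismark, sorting with samtools and methylation calling with methylKit. They removed 2 mice of poor sequencing quality, 1 CON-LFD and 1 DIO-LFD, and bases of extreme coverage. For each mouse the authors deposited methylation as a fraction between 0 and 1, at 75761 sites with 0 missing, the nearest transcript and flags for promoters, exons, introns and CpG islands, and no read counts. Amplified fragments are short and lie near CCGG, so neighboring sites often share reads, and CpGs outside such fragments were not measured. The flags and symbols are those of the table. A symbol was absent at 361 sites and had turned into a date at 201.

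The level b of a site was analysed as M, which is log2((b + 0.01)/(1 − b + 0.01)), features with a standard deviation under 0.05 across the 14 mice were left out (10151 sites), and a single limma model (3.58.1, R 4.3.3) held all 4 groups, with Benjamini-Hochberg adjustment over all features tested. Regions were runs of at least 3 sites with gaps of at most 200 bp, and genes the mean of at least 2 sites within 5000 bp of the start or flagged as promoter, exon or intron. Mean levels of classes were compared by two-sided exact permutation tests in SciPy 1.17.1, doubling the smaller tail. On simulated data with 200 sites changed by 4 in M among 65610, 154 were recovered, and 37 with a change of 2. With 200 of 4750 regions changed by 2, 161 were recovered, and with 200 of 2433 genes, 180. False calls numbered 7, 6, 6 and 10 in the same order. The simulated noise was drawn independently for each feature and mouse, without shifts of whole mice or links between neighboring sites. These numbers therefore do not show how many changes would be found in these mice.

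Sites named were all those past the threshold, the 12 higher and 12 lower with the smallest p among non-overlapping sites that differed by at least 20 percentage points, the 6 regions and 4 genes with the smallest p, and up to 2 genes per list with the smallest p at a non-overlapping site. Genes were also named, after their values were seen, for having the most sites at an unadjusted p under 0.05. The comparison, its gene lists and its tests were chosen with earlier results of these data known. The labels do not state that the mice came from separate cages or litters, so p-values measure the spread between these mice. Sequences were read from GRCm38.p6, which is mm10, with samtools 1.23.1, and annotations of named sites from GENCODE M21. As alternatives, an offset of 0.1, untransformed levels, trended and robust eBayes, the 2 groups alone, centring on the mouse median, other filters on the standard deviation, autosomes only, other region and gene rules, a replicate block, and the omission of single mice were run. A fit limited to sites outside CCGG was added after seeing the data. Python 3.11.15, pandas 2.3.3, NumPy 2.4.6 and Matplotlib 3.10.9 were used. Of the 12 lower sites chosen by size and p, 1 is counted but its values are not reported here. Gene set enrichment was not analysed here.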

Additional observations from a re-analysis of the deposited data

Results flagged for a closer look

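Of 55 sets of DIO-HFD values examined, class means and named sites, 7 held a mouse whose gap to its neighbor, divided by the range of the 4 mice, was above Dixon's 95% critical value, where chance gives about 1 in 20 groups, or 2.75. The gap was 0.943 of the range for the mean level of all sites, 0.914 at 70 to 90% methylation, 0.889 in exons and 0.959 in introns, with DIO-HFD replicate 1 the highest mouse in each. The sites of these classes overlap, so these 4 values are not separate. In the class under 10% the gap was 0.946, and there replicate 3, at 11.6%, was the highest, above 7.23%, 7.41% and 7.47%. At single sites, replicate 1 was the highest at Nr2f2, with 0.838 (89.7% against 83.8% to 84.8%), and at D930015E06Rik, with 0.956 (51.6% against 38.3% to 38.9%).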

How the results depend on the processing

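Limits come first from DIO-HFD replicate 1 and from depth, which is unknown. With 1 mouse left out in turn, sites with an adjusted p under 0.05 numbered 1 to 9551 (9551 without DIO-HFD replicate 1, 36 without DIO-LFD replicate 2) against 2, and sites with an unadjusted p under 0.05 numbered 3828 to 21387 against 6614. Regions numbered 0 to 2765 adjusted and 182 to 3102 unadjusted, against 0 and 600, and genes 0 to 1199 and 87 to 1424, against 0 and 239. Where DIO-HFD replicate 1 was kept, leaving out DIO-LFD replicate 1 (182 regions) or DIO-HFD replicate 4 (87 genes) gave the fewest. The difference at 10 to 30% methylation ranged from -0.485 to 0.401 percentage points, that in promoter CpG islands from -0.0436 to 1.31, and that between introns and exons from -0.274 to 0.291. The cause was not tested.

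The 2 adjusted site calls became 0 with trended and robust eBayes, with untransformed levels and with an offset of 0.1, 1 with a minimum standard deviation of 0.1, 1 outside CCGG, and 16 with the 2 groups alone. A minimum of 0.1 tests fewer features and gave 1779 sites, 148 regions and 49 genes unadjusted, and 4 regions adjusted. No filter gave 986 regions and 676 genes, regions of at least 5 sites 270, and the 2 groups alone 3070 sites, 252 regions and 100 genes. With each mouse set against its own mean, the difference became -0.188 points at 30 to 70%, -0.299 at 90% or more, -2.53 in promoter CpG islands, -0.403 in promoters outside islands and -1.01 in islands outside promoters. At 10 to 30% it was 0.493 with classes set by CON-LFD mice alone and 0.938 by the median over sites, and the median gave -0.217 in promoter CpG islands.

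The replicate numbers were not used to pair the mice, and whether they do was not settled. Deviations of same-numbered mice correlated at 0.202, 0.102 and 0.019. DIO-LFD replicates 1 and 2 correlated best with the DIO-HFD mouse of the same number, and replicate 3 with DIO-HFD replicate 2 (0.038). The replicate block gave 1 site with an adjusted p under 0.05 and 6119 unadjusted, and 0 regions and 0 genes adjusted, and took the adjusted p of Fam110b to 0.112. Of the results for single sites, regions and genes under all alternatives, 779 kept their direction and side of the threshold, 54 came to pass it, 10 no longer passed it and 0 changed direction. Nothing is read from these counts. The results were chosen by p in the same mice, and most sites also for groups that did not overlap, which largely fixed their direction. Nearly all were above the threshold with all mice, so keeping their side mostly means staying above it.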
